A study of Homo sapiens with 2 samples.

Results

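Contacts of captured promoter fragments that span at least 2 Mb of 1 chromosome were described in K562 cells. K562 is an established human chronic myelogenous leukaemia line that carries the BCR-ABL1 fusion. One library came from cells given ponatinib, which inhibits the ABL kinase, at 100 nM for 24 hours, and 1 from cells given the vehicle DMSO for the same time. Promoter-capture Hi-C joins DNA ends that lie close together in fixed nuclei and enriches the joined pairs that hold a promoter. Here the DNA was cut with HindIII and promoter fragments were pulled out with RNA probes, and a captured fragment is called a bait.

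The members were unordered fragment pairs on 1 chromosome with at least 2 Mb between the fragment midpoints, and pairs on chromosomes 9, 13 and 22 were left out. By this rule 1172 of 91305 interactions in the ponatinib list and 915 of 84049 in the DMSO list were members. Together they make 1840 of 138160 different pairs, and 247 members were in both lists. With 1 library per treatment the spread between samples cannot be measured, and no comparison of ponatinib with DMSO carries a test. The read depth of the libraries is unknown. Intervals are 95% intervals that cover counting error only and treat pairs as independent, which pairs of neighbouring fragments are not. The score is the authors' own value for a pair within its list, and no listed score is below 5. As a check of the cell line, pairs that join chromosomes 9 and 22, the partners of the BCR-ABL1 fusion, numbered 1781 in ponatinib and 1654 in DMSO, with 1131 shared.

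Contact frequency in Hi-C falls with distance along the DNA, and most promoter contacts stay within a domain bounded by the DNA-binding protein CTCF and the cohesin ring. Longer contacts are known between blocks of like chromatin and between Polycomb-bound genes. Distances are read from the reference genome, so DNA that is deleted, inverted, duplicated or joined elsewhere in a cell line also appears as a long contact, and the K562 genome is known to carry many such changes. The lists hold no read counts and no junction reads. A rearrangement and a contact across intact DNA therefore cannot be told apart here for any single region.

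Promoters are shown for 4 bait fragments that the results below turn on: COLEC12 and MYL12B from chromosome 18, DNAJB9 from chromosome 7 and ATXN1 from chromosome 6. Each is the first window listed for the gene in RefSeq on GRCh38.p14, 250 bases before to 50 after the start, read 5′ to 3′. The windows lie at chr18:500652-500951 (COLEC12, minus strand), chr18:3261883-3262182 (MYL12B, plus strand), chr7:108569624-108569923 (DNAJB9, plus strand) and chr6:16761411-16761710 (ATXN1, minus strand). Capitals mark a match to GGNGGCAG, 8 letters from the core of the CTCF motif, searched on both strands.
COLEC12: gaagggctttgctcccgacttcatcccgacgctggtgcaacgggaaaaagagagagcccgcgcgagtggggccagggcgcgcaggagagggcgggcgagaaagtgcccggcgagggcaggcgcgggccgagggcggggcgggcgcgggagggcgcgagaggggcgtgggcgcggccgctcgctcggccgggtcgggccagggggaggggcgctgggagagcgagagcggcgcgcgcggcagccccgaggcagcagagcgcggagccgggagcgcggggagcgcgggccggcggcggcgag
MYL12B: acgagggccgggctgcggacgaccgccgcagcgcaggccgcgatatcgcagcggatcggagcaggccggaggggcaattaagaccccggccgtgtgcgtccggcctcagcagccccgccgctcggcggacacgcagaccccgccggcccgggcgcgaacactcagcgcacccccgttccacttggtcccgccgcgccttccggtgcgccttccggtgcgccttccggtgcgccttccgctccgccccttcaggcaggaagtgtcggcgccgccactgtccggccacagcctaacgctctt
DNAJB9: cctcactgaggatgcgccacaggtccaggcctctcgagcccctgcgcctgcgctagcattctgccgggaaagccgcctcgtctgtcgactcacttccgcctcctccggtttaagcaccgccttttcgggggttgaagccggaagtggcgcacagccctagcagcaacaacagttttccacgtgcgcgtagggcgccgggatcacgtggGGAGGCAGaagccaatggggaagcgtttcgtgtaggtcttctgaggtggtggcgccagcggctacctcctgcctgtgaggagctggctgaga
ATXN1: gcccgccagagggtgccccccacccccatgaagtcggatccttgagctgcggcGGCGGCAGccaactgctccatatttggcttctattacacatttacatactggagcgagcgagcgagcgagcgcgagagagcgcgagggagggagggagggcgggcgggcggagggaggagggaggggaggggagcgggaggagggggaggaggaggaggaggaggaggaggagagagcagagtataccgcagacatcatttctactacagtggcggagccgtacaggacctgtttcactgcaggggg
The DNAJB9 and ATXN1 windows each held 1 match, and the COLEC12 and MYL12B windows held none, which says only that these letters are not in these windows. A match was present in 19.4% of 736 windows of genes whose start lies on a bait with a contact beyond 2 Mb. It was present in 19.7% of 12933 windows of all protein-coding genes on listed baits, and in 16.7% of all 35116 windows. Genes can have several windows. Of the 728 protein-coding genes with an end on a bait with such a contact, 591 had a window in the table.

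The ponatinib list held more contacts beyond 2 Mb than the DMSO list. The numbers were 1172 in ponatinib and 915 in DMSO, a ratio of 1.28 (1.17 to 1.40). Under 2 Mb on the same chromosomes there were 76743 in ponatinib and 70709 in DMSO, a ratio of 1.09 (1.07 to 1.10). Of all listings beyond 2 Mb 56.2% were in ponatinib, against 52.0% under 2 Mb, and the difference was 4.11 percentage points (1.96 to 6.24). Against pairs from 1 to 2 Mb, with 2798 in ponatinib and 2255 in DMSO, the difference was 0.784 points, with an interval of -1.75 to 3.31 that holds 0.

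From 2 to 3 Mb there were 573 contacts in ponatinib and 440 in DMSO, and from 3 to 5 Mb 389 in ponatinib and 286 in DMSO, a ratio of 1.36 (1.16 to 1.59). At 10 Mb or more there were 134 in ponatinib and 130 in DMSO, a ratio of 1.03 (0.804 to 1.32). More contacts were in the ponatinib list on 18 of 20 chromosomes and fewer on 1, chromosome 1, with 46 in ponatinib and 48 in DMSO. These numbers do not take into account that the ponatinib list was also longer under 2 Mb. As a share of the chromosome's contacts, members were lower in ponatinib on chromosome 1 (0.388% against 0.438% in DMSO) and chromosome 3 (0.859% against 0.966%). The share was near equal on chromosome 4 (3.58% in each) and higher in ponatinib on the remaining chromosomes. Next to the limit, from 1.9 to 2 Mb, there were 120 pairs in ponatinib with a median score of 6.55 and 79 in DMSO with one of 6.14. From 2 to 2.1 Mb there were 85 in ponatinib with a median score of 6.62 and 74 in DMSO with one of 6.70.

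**Figure D1:**
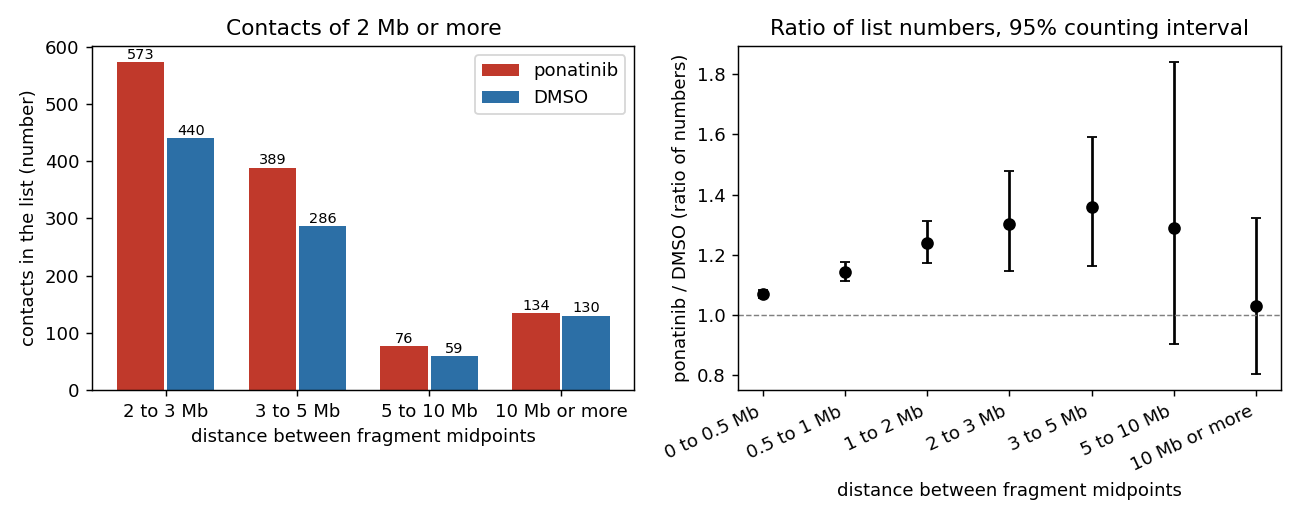
Left, the number of contacts (vertical axis) in the ponatinib (red) and DMSO (blue) lists by distance between fragment midpoints, with 573 in ponatinib and 440 in DMSO from 2 to 3 Mb. Right, the ratio of ponatinib to DMSO numbers with 95% counting intervals as bars, where the dashed line is 1; the ratio is 1.36 from 3 to 5 Mb and 1.03 at 10 Mb or more.

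Fewer of these contacts were shared between the lists than among shorter ones. The 247 shared members were 21.1% of the ponatinib members (18.8 to 23.5%) and 27.0% of the DMSO members (24.1 to 30.0%). Under 2 Mb the shared pairs were 41.8% of the ponatinib list and 45.4% of the DMSO list. The differences were -20.8 percentage points (-23.0 to -18.3) in ponatinib and -18.4 points (-21.2 to -15.4) in DMSO. Against pairs from 1 to 2 Mb the differences were 1.81 points (-0.885 to 4.62) in ponatinib and 3.09 points (-0.218 to 6.52) in DMSO, and both intervals hold 0. With both ends matched within 5 kb in place of identical fragments, 41.1% of the ponatinib members and 46.7% of the DMSO members had a match in the other list. The looser matching is not given for shorter pairs, so these shares cannot be set against those above.

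Sharing differed by score. Of ponatinib members with scores from 5 to 7, 6.27% were also in DMSO, against 93.2% of the 59 members with scores of 20 or more. Of DMSO members the shares were 13.2% at scores from 5 to 7 and 93.0% of the 43 members at 20 or more. Below 20 the shares lay under those of pairs under 2 Mb of like score, for example 43.2% against 81.6% for ponatinib scores from 10 to 20. Pairs from 1 to 2 Mb were nearer, with 61.1% in that class. At ponatinib scores from 7 to 10 the share was 20.3% beyond 2 Mb and 21.5% from 1 to 2 Mb. At scores from 5 to 7 the shares from 1 to 2 Mb were 8.59% in ponatinib and 14.0% in DMSO. High scores were also more common beyond 2 Mb: 23.2% of ponatinib members and 20.1% of DMSO members reached 10, against 13.9% in ponatinib and 12.6% in DMSO under 2 Mb. These differences were 9.27 points (6.93 to 11.8) in ponatinib and 7.55 points (5.06 to 10.3) in DMSO. Chromosomes 17 and 18 held 464 of the 1840 pairs (25.2%), and without them 15.7% of ponatinib and 13.5% of DMSO members reached 10, a setting chosen after seeing the data. Pairs with a bait at both ends were less frequent, 13.8% of ponatinib and 14.8% of DMSO members against 20.5% in ponatinib and 21.0% in DMSO under 2 Mb. From 1 to 2 Mb they were 16.6% in ponatinib and 19.2% in DMSO. The lower share lay in the recurrent regions described below, with 10.1% in ponatinib and 10.2% in DMSO. Outside those regions it was 21.1% in ponatinib and 22.9% in DMSO, near the values under 2 Mb.

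**Figure D2:**
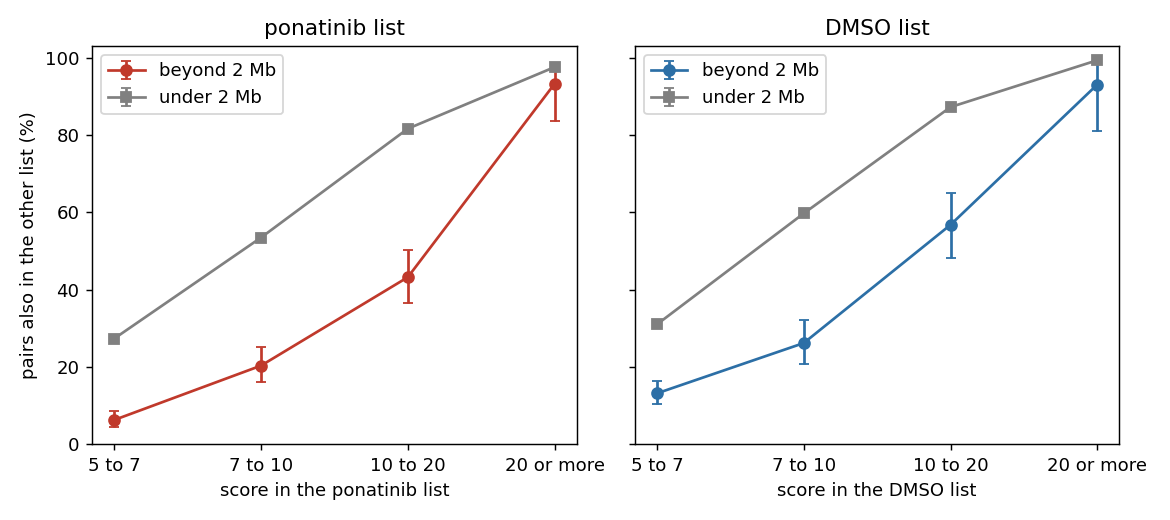
Share of pairs that are also in the other list (vertical axis, percent) by score class (horizontal axis), for the ponatinib list at the left and the DMSO list at the right. Coloured circles are contacts beyond 2 Mb, grey squares are pairs under 2 Mb on the same chromosomes, and bars are 95% exact binomial intervals; in ponatinib the share beyond 2 Mb is 6.27% in the lowest class and 93.2% in the highest.

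Most contacts beyond 2 Mb fell into groups of nearby pairs. When pairs were joined if both of their ends lay within 250 kb of those of another pair, 70 groups of at least 5 pairs formed, called recurrent regions. They held 1133 of the 1840 pairs, or 66.5% of the ponatinib members (63.7 to 69.2%) and 64.2% of the DMSO members (60.9 to 67.3%). Without chromosomes 17 and 18, a setting chosen after seeing the data, the shares were 56.0% in ponatinib and 53.2% in DMSO. A bait with a run of neighbouring partners can form a region by this rule. The same grouping of shorter pairs is not given, so the shares are not read as particular to this distance. In the regions 233 pairs were shared, 29.9% of the ponatinib and 39.7% of the DMSO pairs there. Outside them 14 were, 3.56% of 393 ponatinib and 4.27% of 328 DMSO pairs. Scores of at least 10 made up 31.7% of ponatinib and 28.6% of DMSO pairs inside, and 6.36% of ponatinib and 4.88% of DMSO pairs outside. Every one of the 70 regions had pairs in both lists, but 33 had no identical pair in both. By number 43 regions had more pairs in ponatinib, 15 fewer and 12 the same. The ponatinib list was also longer under 2 Mb, and no like count for groups of shorter pairs is given.

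Regions with ends less than 5 Mb apart numbered 59, with 629 pairs in ponatinib and 458 in DMSO, a ratio of 1.37 (1.22 to 1.55). The 11 regions with ends further apart had 150 pairs in ponatinib and 129 in DMSO, a ratio of 1.16 (0.913 to 1.48), and 8 of them lay on chromosomes 17 and 18. Their highest scores had a median of 27.5, against 9.90 in the 59 nearer regions. Chromosome 18 alone had 224 members in ponatinib and 173 in DMSO, or 16.9% of its same-chromosome contacts in ponatinib and 14.0% in DMSO. Chromosome 4 followed with 123 in ponatinib and 111 in DMSO, 3.58% of its contacts in each list.

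**Figure D3:**
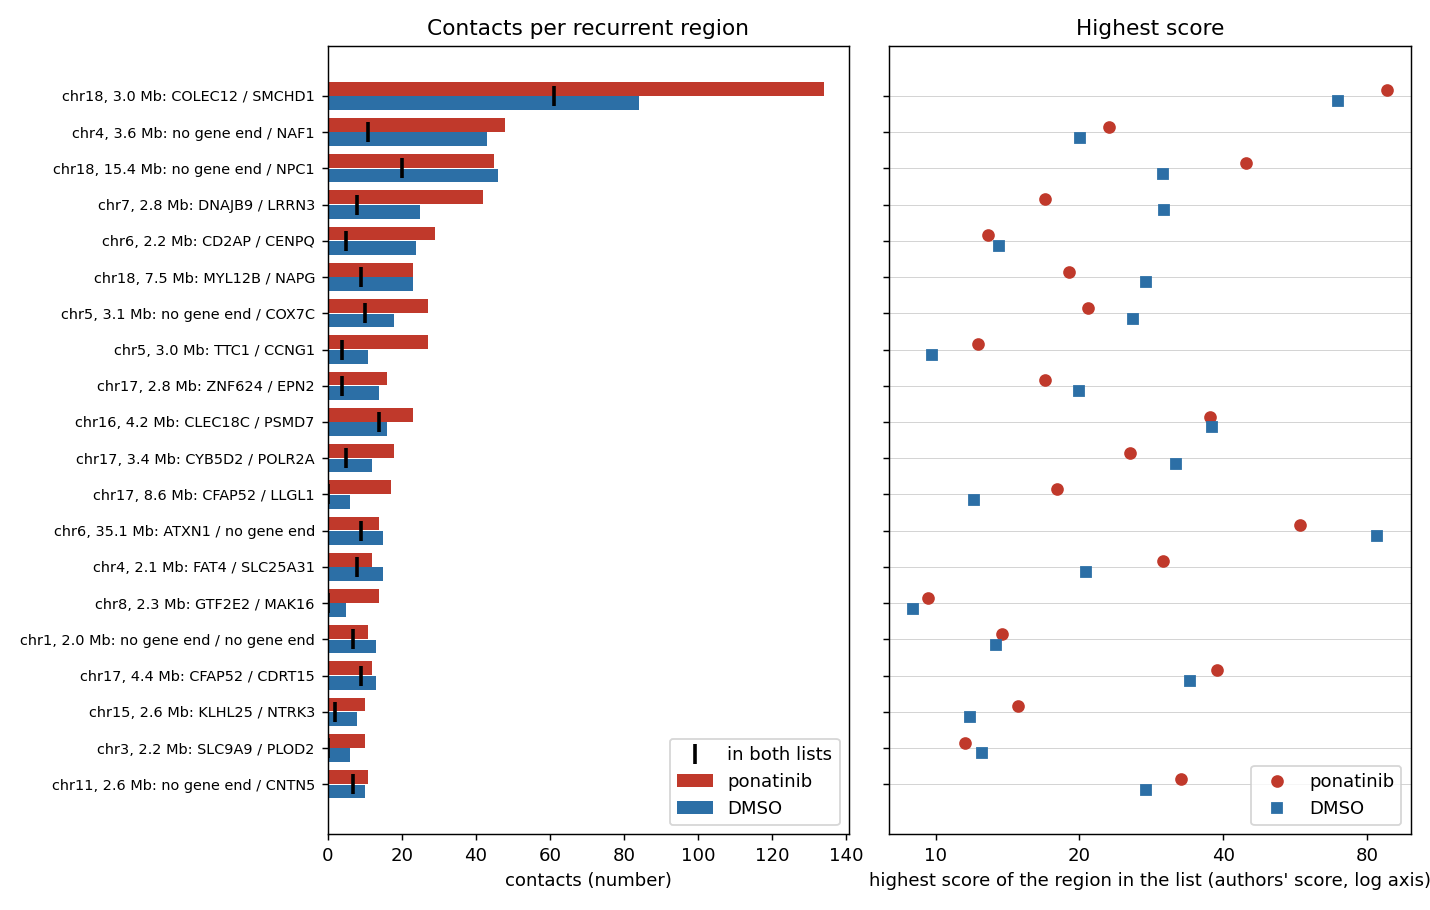
The 20 recurrent regions with most pairs, 1 row each, named by chromosome, the median distance of their pairs and the first gene with an end on a bait at the lower and the upper end. Left, pairs in ponatinib (red, upper bar) and DMSO (blue, lower bar), with a black tick at the number in both; right, the highest score in each list on a log axis. The COLEC12 region has 134 pairs in ponatinib and 84 in DMSO, and the other 19 regions have fewer than 50 in each list.

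The region with most pairs joined the short-arm end of chromosome 18 at chr18:484107-1054178 to chr18:2655351-3857539. It had 134 pairs in ponatinib and 84 in DMSO, with 61 shared, a ratio of 1.60 (1.21 to 2.12). The lower end held baits of COLEC12, a scavenger receptor gene, of CLUL1, of TYMS, the thymidylate synthase gene, and of YES1, a SRC family kinase gene. The upper end held baits of SMCHD1, a gene of X-chromosome silencing, of EMILIN2 and of MYL12B, a myosin light chain gene, and a bait inside DLGAP1, which encodes a postsynaptic scaffold protein. The pair with the highest ponatinib score among all members joined a fragment inside CLUL1 (chr18:615270-617687) to the DLGAP1 bait (chr18:3589224-3595011). Its score was 88.12 in ponatinib and 66.51 in DMSO. The COLEC12 bait reached 61.98 in ponatinib and 31.19 in DMSO with chr18:3473369-3474266, and 29.88 in ponatinib and 69.60 in DMSO with chr18:3475774-3477768 nearby. Single scores at neighbouring fragments thus differed in opposite directions.

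The strongest pairs of this region had similar distances. The 25 pairs with a score of at least 20 in either list had a median distance of 2.99 Mb, and the middle 50% of them lay from 2.98 to 3.01 Mb. Over all 157 pairs the median was also 2.99 Mb, but the middle 50% lay from 2.91 to 3.07 Mb. The COLEC12 bait had 31 of 34 same-chromosome contacts beyond 2 Mb in ponatinib and 27 of 34 in DMSO, and no listed partner in the 2.56 Mb before the nearest far one. The CLUL1 bait had 27 of 31 in ponatinib and 18 of 26 in DMSO. The DLGAP1 bait, by contrast, also had 35 contacts under 2 Mb in ponatinib and 17 in DMSO, beside 42 in ponatinib and 27 in DMSO beyond it. Between the ends lay METTL4 and NDC80, a kinetochore gene, and 73 listed pairs had an end there, 62 of them leading out of the interval. The 73 pairs were 45.6 per Mb, against 25.6 per Mb over the chromosome. These are not like measures: a pair that leads out counts in full for the interval, which raises the interval's value. No excess is therefore read from them. The upper end overlapped the lower end of another region, in which baits of MYL12B and TGIF1, a homeobox repressor gene, contacted chr18:10387910-10863023, 7.52 Mb away, around NAPG and PIEZO2, a mechanosensitive channel gene. That region had 23 pairs in ponatinib and 23 in DMSO, 9 of them shared, and its top pair scored 19.05 in ponatinib and 27.51 in DMSO.

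Several regions had little or nothing listed between their ends. On chromosome 4 a bait at chr4:159505394-159508020 that overlaps only pseudogenes had all of its 46 same-chromosome contacts in ponatinib and all 38 in DMSO beyond 2 Mb, 11 of them shared. All lay on its higher side, and the nearest was 3.20 Mb away. Its region, 48 pairs in ponatinib and 43 in DMSO, reached chr4:162701243-163759224, with baits of NAF1, a gene of small nucleolar ribonucleoprotein assembly, and of the neuropeptide Y receptor genes NPY1R and NPY5R. The top pair joined that bait to chr4:162701243-162706229, the first fragment of the upper end, with scores of 23.12 in ponatinib and 10.27 in DMSO. The 3.16 Mb between the ends held 1 gene, FSTL5, and 1 bait, and 2 listed pairs touched it, or 0.633 per Mb against 28.0 per Mb over the chromosome.

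On chromosome 7 the bait of DNAJB9, a co-chaperone gene of the endoplasmic reticulum, and THAP5 (chr7:108568763-108574981) had 32 of 47 contacts beyond 2 Mb in ponatinib and 25 of 41 in DMSO. Its near contacts, 15 in ponatinib and 16 in DMSO, all lay on the lower side, and its far contacts all lay on the higher side. The region had 42 pairs in ponatinib and 25 in DMSO, with 8 shared, and ran over LRRN3 to IMMP2L, a mitochondrial peptidase gene. The pair with the IMMP2L bait at chr7:111561333-111562986 scored 7.56 in ponatinib and 30.07 in DMSO, and the fragment before it, chr7:111558753-111561332, scored 16.97 in ponatinib and 9.98 in DMSO. The 2.31 Mb between the ends had 0 protein-coding genes, 0 baits and 0 listed pairs, where the chromosome had 42.1 pairs per Mb.

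A like pattern was present on chromosome 5. A bait at chr5:83721488-83738935, which overlaps no gene of the table, had 26 contacts in ponatinib and 16 in DMSO, all beyond 2 Mb. Its region had 27 pairs in ponatinib and 18 in DMSO, 10 shared, and contained COX7C, a respiratory chain gene. The top pair, with chr5:87011254-87011888, scored 18.40 in ponatinib and 25.84 in DMSO. Between its ends 2.30 pairs per Mb were listed, against 41.8 over the chromosome. The bait in FAT4, an atypical cadherin gene on chromosome 4, had 12 of 13 contacts beyond 2 Mb in ponatinib and 15 of 16 in DMSO, and 2 pairs touched the 2.07 Mb between it and the SLC25A31 region. Whether the DNA between such ends is missing, rearranged or only poor in captured fragments was not tested.

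**Figure D4:**
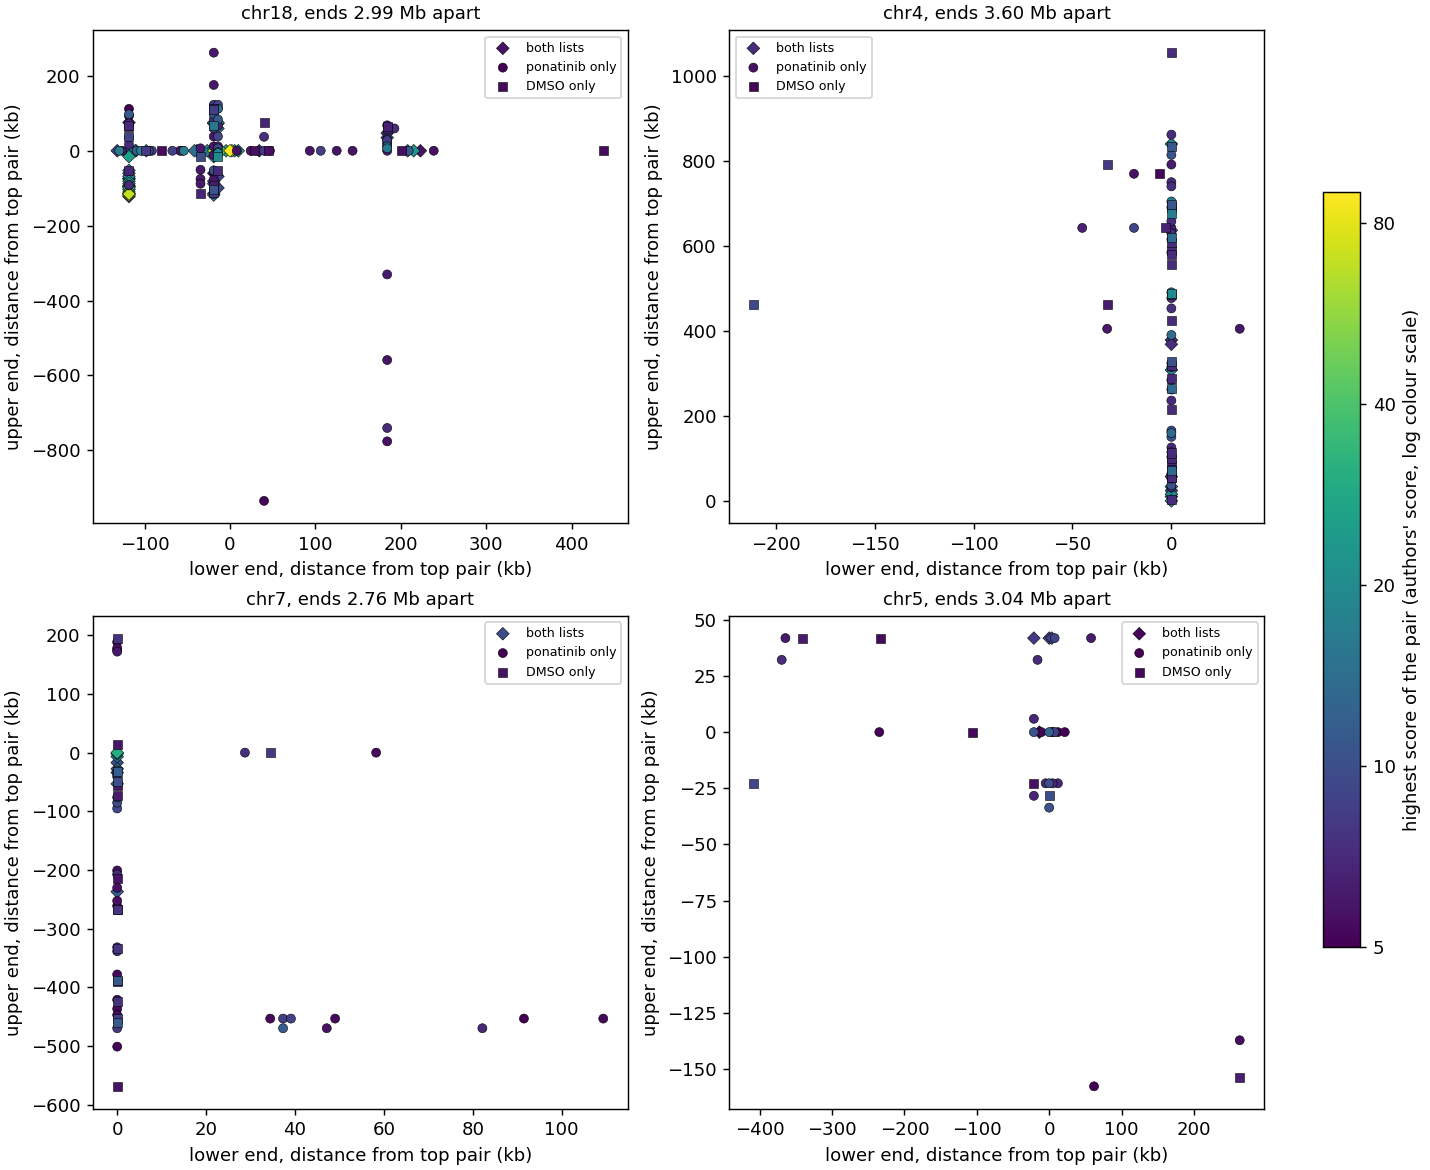
Each point is a contact of 1 region, placed by the distance in kb of its lower (horizontal axis) and upper fragment (vertical axis) from the region's top pair, with colour for the higher of its scores on a log scale. Diamonds are in both lists, circles in ponatinib only, squares in DMSO only. The chromosome 18 COLEC12 region spreads along several baits and has its brightest points at equal shifts of both ends; the chromosome 4 and chromosome 7 regions are mostly 1 bait with a run of partners; the chromosome 5 PTTG1 region has 27 ponatinib and 11 DMSO contacts with scores up to 12.24.

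Such baits were rare. Of 2119 baits with at least 10 same-chromosome contacts in each list, 1899 had none beyond 2 Mb in either, and 14 had at least 50% of them beyond 2 Mb in both. Of those 14, 5 were on chromosome 18, 2 on chromosome 17, 2 on chromosome 4, and 1 each on chromosomes 1, 5, 7, 11 and 16. In all, 872 of 16547 baits had a contact beyond 2 Mb, 585 of them only 1, and the 10 baits with most members held 406 in all.

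**Figure D5:**
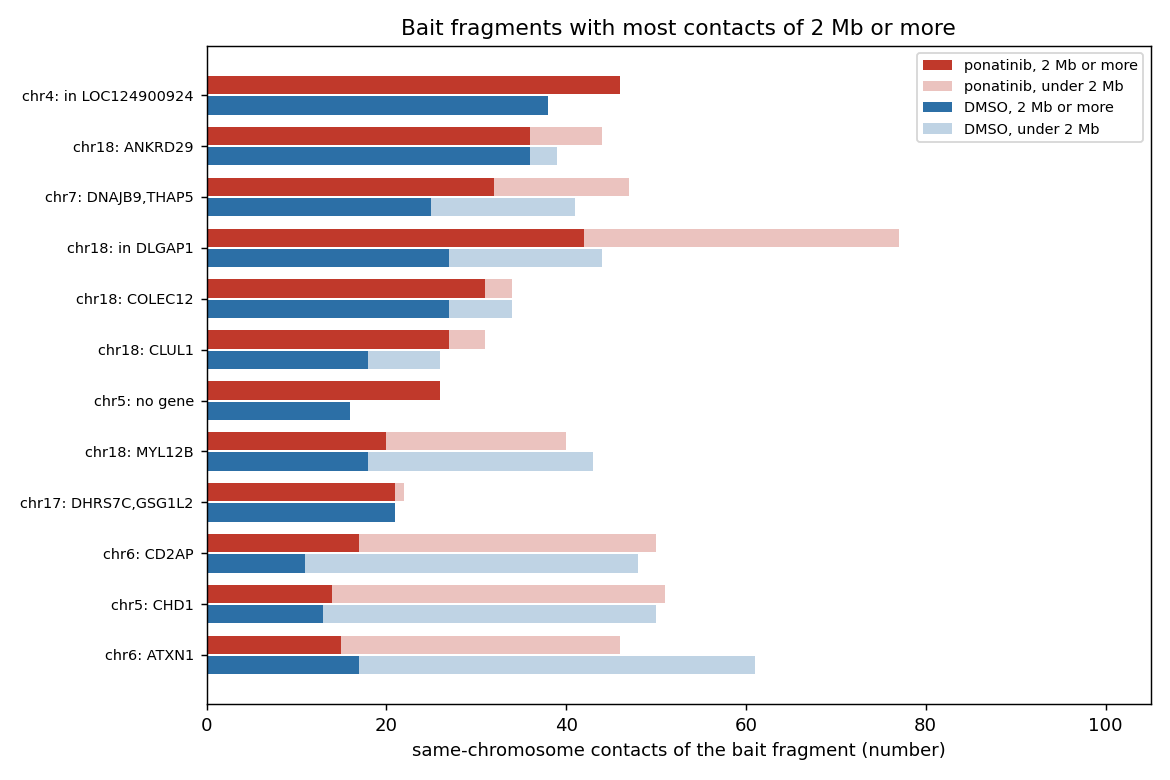
The 12 bait fragments with most contacts beyond 2 Mb, by chromosome and gene. Each has a ponatinib bar (red, above) and a DMSO bar (blue, below), in which the dark part counts contacts beyond 2 Mb and the pale part same-chromosome contacts under 2 Mb. The chromosome 4 and chromosome 5 baits without a protein-coding gene have no pale part, while CD2AP, CHD1 and ATXN1 have mostly short contacts.

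On chromosome 6 the bait of CD2AP, an adaptor protein gene, had 17 of 50 contacts beyond 2 Mb in ponatinib and 11 of 48 in DMSO. Its region had 29 pairs in ponatinib and 24 in DMSO, 5 shared, and joined it to CENPQ, MMUT, which encodes methylmalonyl-CoA mutase, RHAG, a red cell Rh complex gene, the CRISP genes and PGK2, a glycolytic enzyme gene of the testis. The highest scores were 12.89 in ponatinib and 13.59 in DMSO, and 1 gene, PTCHD4, and 0 baits lay between the ends, where 22.1 pairs per Mb were listed against 50.8 over the chromosome. The RHAG bait itself had 1 contact beyond 2 Mb in ponatinib and 5 in DMSO, with 1 shared.

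On chromosome 5 the region of PTTG1, the securin gene, and its neighbours TTC1, FABP6 and SLU7 had 27 pairs in ponatinib and 11 in DMSO, with 4 shared, a ratio of 2.45 (1.18 to 5.48). Its upper end held baits of CCNG1, a cyclin gene, HMMR, a hyaluronan receptor gene, and MAT2B, a subunit gene of methionine adenosyltransferase. The top pair in ponatinib, of the PTTG1 bait and the HMMR bait, scored 12.24 and was not in the DMSO list, where the highest score of the region was 9.84. The HMMR bait had 12 contacts beyond 2 Mb in ponatinib and 4 in DMSO. In all, 15 listed pairs touched the interval between the ends, or 5.74 per Mb against 41.8 over the chromosome.

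Chromosome 17 held a set of regions that used the same or adjoining ends. The bait of DHRS7C and GSG1L2 at chr17:9785863-9802273 had 21 of 22 contacts beyond 2 Mb in ponatinib and 21 of 21 in DMSO. Its partners lay in a region around CDRT15 4.43 Mb away, with 12 pairs in ponatinib and 13 in DMSO, and in one near CORO6, an actin-binding coronin gene, 20.0 Mb away, with 11 in ponatinib and 9 in DMSO. The CDRT15 end was itself joined to the CORO6 end, with 6 pairs in ponatinib and 6 in DMSO. The pair of the DHRS7C bait with chr17:29807966-29810024 scored 55.22 in ponatinib and 15.97 in DMSO. Another region went from chr17:9622961-9785862, next to the DHRS7C bait but without it, to LLGL1, a cell polarity gene, FLII and TOP3A, a topoisomerase gene. Its ends lay 8.58 Mb apart, with 17 pairs in ponatinib and 6 in DMSO and none shared. CORO6 and CDRT15 are named since their ends were re-used, a choice made after the values were seen.

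Nearer the short-arm end of chromosome 17, the bait of POLR2A, the gene of the largest RNA polymerase II subunit, and ZBTB4 contacted the CYB5D2 and ZZEF1 end 3.43 Mb away. This region had 18 pairs in ponatinib and 12 in DMSO, 5 shared, and its top pair scored 25.58 in ponatinib and 31.92 in DMSO. A region of ZNF624 and EPN2, with ALDH3A2, the fatty aldehyde dehydrogenase gene, and SLC47A1 on the same end, had 16 pairs in ponatinib and 14 in DMSO. On chromosome 16 the CLEC18C and PDPR end and an end with NPIPB15, PSMD7, a proteasome subunit gene, and GLG1 had 23 pairs in ponatinib and 16 in DMSO, 14 of them shared. Its top pair, with the NPIPB15 bait, scored 37.50 in ponatinib and 37.86 in DMSO. NPIPB15 belongs to a gene family in segmental duplications, so reads of its copies are uncertain.

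The ends of some far regions also had partners on other chromosomes. The bait of ATXN1, the ataxin-1 gene, contacted chr6:51527311-51876513, where PKHD1 lies, 35.1 Mb away, with 14 pairs in ponatinib and 15 in DMSO, 9 of them shared. The pair with chr6:51858402-51862073 scored 57.89 in ponatinib and 83.93 in DMSO, the highest DMSO score of all members. The same bait had 38 pairs with other chromosomes in ponatinib and 42 in DMSO, and 53 of the different pairs were with chromosome 16. The ANKRD29 bait at chr18:23654711-23663267 contacted chr18:8110211-8563992, which holds PTPRM, a receptor phosphatase gene, 15.4 Mb away. That region had 45 pairs in ponatinib and 46 in DMSO, 20 shared, and also included baits of LAMA3, a laminin gene, and NPC1, a lysosomal cholesterol transport gene. The pair with chr18:8128075-8130545 scored 44.58 in ponatinib and was not in the DMSO list, and the one with chr18:8267359-8268261 scored 27.17 in DMSO and was not in the ponatinib list. Pairs of this end with other chromosomes numbered 24 in ponatinib and 20 in DMSO, 38 of the different ones with chromosome 5.

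In some of the regions named here scores were lower further from the top pair, at long and at shorter distances. The rank correlation of a pair's higher score with its distance from the top pair was -0.75 over the 20 ATXN1 pairs, -0.37 over the 71 ANKRD29 pairs and -0.57 over the 37 MYL12B and NAPG pairs. Among nearer regions it was -0.81 over the 16 CDRT15 pairs, -0.75 over the 25 POLR2A pairs, -0.62 over the 25 NPIPB15 pairs and -0.42 over the 59 DNAJB9 pairs. It was weaker over the 157 COLEC12 pairs (-0.16) and the 80 pairs of the chromosome 4 region near NAF1 (-0.07). Weak values were also found over the 34 PTTG1 pairs (-0.04), the 26 ZNF624 and EPN2 pairs (-0.09) and the 17 CHRM3 pairs (-0.10). The 13 FRZB and ITGAV pairs (-0.12) and the 19 GTF2E2 pairs (-0.20) were similar. The top pair was chosen by the same score and kept in, which by itself pulls these values towards the negative side. The pairs of a region also share baits, so these values only describe it.

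By the number of pairs, 18 of 70 regions (25.7%) were at least 2-fold higher in ponatinib and 7 (10%) at least 2-fold lower, on the scale log2((ponatinib + 1)/(DMSO + 1)). Of 86 baits with at least 5 listings beyond 2 Mb, 21 (24.4%) were at least 2-fold higher in ponatinib and 5 (5.81%) at least 2-fold lower. Over all same-chromosome contacts the shares were 10.6% of 10211 baits higher and 6.89% lower. Small numbers pass this rule easily: of 3482 baits with 5 to 8 listings at all distances, 16.2% were higher and 12.6% lower.

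Among regions of at least 10 pairs, the ratio was highest on chromosome 2, where FRZB, a WNT antagonist gene, DUSP19 and NUP35 contacted ZC3H15 and ITGAV, an integrin gene. It had 11 pairs in ponatinib and 2 in DMSO, a ratio of 5.50 (1.20 to 51.1). The LLGL1 region followed with 2.83 (1.07 to 8.78), and a chromosome 8 region of GTF2E2, DUSP26 and MAK16 had 14 in ponatinib and 5 in DMSO. On chromosome 21, MRPL39, JAM2 and GABPA, an ETS factor gene, contacted LTN1 and USP16 with 9 pairs in ponatinib and 4 in DMSO. The lowest ratios were near 1: 12 pairs in ponatinib and 15 in DMSO for FAT4, and 11 in ponatinib and 13 in DMSO for a region of chromosome 1 with a bait in CHRM3, a muscarinic receptor gene. The intervals of both ratios hold 1.

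Of the 5 largest gains of single baits 4 were in the COLEC12 region, and the other was the chromosome 5 bait at chr5:83721488-83738935, which overlaps no gene. The DLGAP1 bait had its higher number in ponatinib both beyond and under 2 Mb, as above. A bait inside YES1 at chr18:797519-803518 had 14 in ponatinib and 4 in DMSO. The largest losses were small. A bait at chr6:79631028-79633912 with no gene end had 0 in ponatinib and 5 in DMSO, ZNF330 had 3 in ponatinib and 6 in DMSO, and KBTBD8 had 2 in ponatinib and 5 in DMSO.

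Of the 247 shared pairs, 150 had the higher score in ponatinib and 96 in DMSO, with medians of 11.6 in ponatinib and 9.89 in DMSO. Over all listed pairs under 2 Mb the median was also higher in ponatinib, 6.44 against 6.36 in DMSO. The same count over shorter shared pairs is not given here, and the score describes a pair within its list. No direction is therefore read from these numbers. Pairs found in 1 list only had medians of 6.41 in ponatinib and 6.29 in DMSO. The rank correlation of the scores over shared pairs was 0.56.

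Most members lay over gene-poor DNA. For pairs of 2 to 5 Mb the DNA between the ends had a median of 2.40 protein-coding genes per Mb, against 7 per Mb within 250 kb of the ends and 5.39 over their chromosomes. In 92.1% of these 1497 pairs the density between the ends was below that around them, and in 80.4% it was below that of the chromosome. For the 343 pairs of 5 Mb or more the median was 3.54 between and 6 around the ends. Of these, 77.6% had a density between the ends below that around them, and 63.3% one below that of the chromosome. The values for pairs of 1 to 2 Mb were 2.87 between and 6 around the ends, and for those of 0.5 to 1 Mb 6.50 and 8. Of the 70 regions 64 had fewer genes per Mb between their ends than their chromosome, 11 had none, and 54 had fewer listed pairs per Mb there. The COLEC12, ANKRD29, MYL12B and NAPG, ATXN1 and POLR2A regions were among those with more listed pairs by this count. A pair with either end in the interval counts in full there, which raises the interval's value against that of the chromosome. This matters most where many pairs lead out, 62 of 73 at COLEC12 and 309 of 484 at MYL12B and NAPG, against 33 of 3114 at ATXN1. For example, 89.6 per Mb were listed between the ATXN1 ends against 50.8 over chromosome 6. A bait lies at a gene, which sets part of the density at the ends.

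Genes of 10 families were counted for contacts beyond 2 Mb. Over all genes, 728 of 12699 with a listed bait (5.73%) had one. A contact was present for 6 of 213 developmental transcription factor genes, many of them Polycomb targets, 1 of 165 olfactory receptor genes, 0 of 45 clustered protocadherin genes and 0 of 84 keratin genes. The developmental factor genes had 2 contacts in ponatinib and 5 in DMSO, among them GATA6 with 1 in each and SOX3 with 1 in ponatinib and 0 in DMSO. For 0 of 45 protocadherin genes a share of up to 6.67% is still allowed, and for 0 of 84 keratin genes 3.57%. Of 306 zinc finger genes 6 had a contact, with 6 in ponatinib and 5 in DMSO at ZNF624, and of 61 histone genes 3 did. Families in segmental duplications had 5 of 22 genes, of which NPIPB15 had 9 in ponatinib and 9 in DMSO with 8 shared, and the defensin gene DEFB115 had 3 in ponatinib and 1 in DMSO.

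Of 37 erythroid genes 3 had a contact beyond 2 Mb: RHAG as above, BCL11A, a repressor gene of fetal globin, with 1 in ponatinib and 0 in DMSO, and BPGM with 0 in ponatinib and 1 in DMSO. Of 34 genes of the BCR-ABL1, STAT5 and ERK pathways 1 did, SOS1, a RAS exchange factor gene, with 0 in ponatinib and 1 in DMSO at a score of 5.82. Of 39 CTCF, cohesin and Mediator genes 3 did, with 4 in ponatinib and 1 in DMSO at MED7. These numbers are too small for a direction.

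Outside the recurrent regions 397 of 707 pairs stood alone and 310 formed 126 groups of 2 to 4. At 10 Mb or more 61 pairs lay outside, 29 in ponatinib and 32 in DMSO, and 0 were shared. Among those that were shared, a PCDH10 bait, of a protocadherin gene, scored 14.33 in ponatinib and 9.97 in DMSO with a fragment 3.72 Mb away. The baits of BCKDHB, a branched-chain amino acid enzyme gene, and of DOP1A and UBE3D, 2.95 Mb apart, scored 11.05 in ponatinib and 11.02 in DMSO. The strongest pair of 1 list only there joined PCF11, a transcription termination factor gene, to PICALM, an endocytosis gene, with a score of 20.47 in DMSO. PCDH10, BCKDHB, DOP1A and UBE3D were chosen after their values were seen.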

How the data were processed

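Promoter-capture Hi-C interactions were deposited by the authors as 1 list per library, with a bait, a partner and a score on each line. The score is the authors' value for the pair as deposited, with no listed value below 5. Fragment coordinates are on hg38 (per the submitters' processing notes). How reads were aligned, pairs called and the score defined is not given in the sources used here.

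Pairs were taken without orientation, and identical fragment pairs in both lists counted as shared (1 ponatinib pair was listed both ways). Members, region grouping (250 kb, at least 5 pairs), the 2-fold rule (pseudocount 1, at least 5 listings) and 10 gene lists were chosen with earlier results of these data known. Protein-coding genes of RefSeq (GRCh38.p14) were assigned to baits that hold either gene end. Shares and ratios have exact binomial intervals, differences of shares Newcombe intervals. A count of 0 allows up to 3.

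Named genes are those on baits of the 12 regions with most pairs, the 5 highest and 5 lowest region ratios, the 5 top pairs per list, the 10 baits with most members, the 5 largest gains and losses, and up to 3 genes per list. Some are not reported here. Grouping and intervals were tested on simulated data. Alternatives changed the score and distance limits, list length, distance definition, matching, linkage, region size, pseudocount, scaling and gene assignment. Python 3.11.15, pandas 2.3.3, numpy 2.4.6, SciPy 1.17.1 and matplotlib 3.10.9 were used.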

Additional observations from a re-analysis of the deposited data

Results flagged for a closer look

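Chromosomes 9, 13 and 22, which were left out of every comparison, held 892 contacts of 2 Mb or more in the ponatinib list and 775 in the DMSO list. Chromosome 13 had 683 in ponatinib and 600 in DMSO, chromosome 9 had 194 in ponatinib and 163 in DMSO, and chromosome 22 had 15 in ponatinib and 12 in DMSO.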

How the results depend on the processing

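No paired analysis was possible because each treatment has 1 library and no replicate number. With 2 lists, the limits are the unknown depth, the unstated score threshold and overlapping fragments. The ratio of ponatinib to DMSO members, 1.28, was 1.48 at scores of at least 10 and 1.11 at 5 Mb or more. The shared share was 28.2% in ponatinib and 39.0% in DMSO at scores of at least 7, 33.8% in ponatinib and 50% in DMSO at 10, 17.9% in ponatinib and 22.4% in DMSO without the largest region, 14.5% in ponatinib and 18.3% in DMSO without chromosomes 17 and 18 (chosen after seeing the data), 41.1% in ponatinib and 46.7% in DMSO with ends matched within 5 kb, 45.7% in ponatinib and 51.1% in DMSO within 10 kb, and 26.7% of the ponatinib list at 5 Mb or more. The share with scores of at least 10 was 28.9% in ponatinib and 24.2% in DMSO at 3 Mb or more, 37.6% in ponatinib and 25.4% in DMSO at 5 Mb or more, 20.4% in ponatinib and 17% in DMSO without the largest region, and 15.7% in ponatinib and 13.5% in DMSO without chromosomes 17 and 18. The promoter-to-promoter share was 8.46% in ponatinib and 9.24% in DMSO at scores of at least 10, 16.1% in ponatinib and 17.6% in DMSO without chromosomes 17 and 18, and 11.1% of the DMSO list at 5 Mb or more. The share in recurrent regions was 71.8% in ponatinib and 74.1% in DMSO at scores of at least 7, 77.2% in ponatinib and 83.7% in DMSO at 10, 71.4% in ponatinib and 68.3% in DMSO at 5 Mb or more, 62.1% in ponatinib and 60.5% in DMSO without the largest region, 56.0% in ponatinib and 53.2% in DMSO without chromosomes 17 and 18, 59.0% in ponatinib and 53.9% in DMSO with 100 kb linkage, and 69.4% of the ponatinib list with 500 kb. There were 118 regions of at least 3 pairs, 30 of at least 10, 32 at scores of at least 7 and 11 at 5 Mb or more. With at least 10 listings 6 baits had 2-fold more in ponatinib and 0 fewer. Olfactory receptor genes had 2 ponatinib contacts with gene ends within 1 kb and 0 with gene starts only, an assignment chosen after seeing the data. By starts, developmental factor genes had 2 DMSO contacts, segmental duplication families 5 in ponatinib and 1 in DMSO, and erythroid genes 1 in ponatinib. The other 64 alternative values stayed within the counting interval or within 1.5 times the main count, and the cause of the changes was not tested.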
